A study of Mus musculus with 4 samples.

Results

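The 10 genes described here encode nuclear receptors that mark or regulate stem cell states: the estrogen-related receptors Esrra, Esrrb and Esrrg, the orphan receptors Nr5a2 (Lrh1), Nr0b1 (Dax1) and Nr6a1 (Gcnf), the COUP transcription factors Nr2f1 and Nr2f2, and the retinoic acid receptors Rarb and Rarg. They were chosen by gene name and looked up among the 37620 gene identifiers of the count tables, where all 10 were found, together with 38 other nuclear receptors. Expression was measured by strand-specific RNA-seq in 4 mouse libraries, 1 per group and with no replicates. Of these, 3 came from the R1 mouse embryonic stem cell (mESC) line after 2 days in serum-containing, feeder-free medium, and the media of all 3 contained CHIR99021, which blocks GSK3, at 3 µM together with PD0325901, which blocks MEK, at 1 µM. The 2i−L library had these inhibitors without added LIF, the 2iJ library also had a JAK inhibitor at 2 µM, and the 2iJ+B−A library had that JAK inhibitor together with 10 ng/ml BMP4 and 10 µM of an inhibitor of ALK5, a TGF-β family receptor. Where 4 values stand together without further labels, they follow the order 2i−L, 2iJ, 2iJ+B−A, TSC. The fourth library came from the F4 line of trophoblast stem cells (TSC), which also carries the label day 2. Its culture is given only by reference to an earlier report, without the composition of the medium. Line and cell type therefore cannot be told apart in any comparison with TSC, and each condition stands on 1 library of 1 line.

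Nuclear receptors are transcription factors that bind DNA through a pair of zinc fingers and, in many cases, change activity when a small lipophilic ligand binds them. Esrrb and Nr5a2 recognise extended half-sites on DNA and take part in the network that maintains naive pluripotency, with Nr0b1 as a partner that lacks the usual DNA-binding domain, whereas Nr6a1 represses Pou5f1 (Oct4) as pluripotent cells differentiate. Esrrb is also needed for trophoblast stem cell self-renewal, and the retinoic acid receptors act as heterodimers with retinoid X receptors.

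The libraries held 33913984 to 36964392 counts on genes, 82.2 to 83.6% of the read pairs listed, so that 3 counts, taken here as the detection floor, corresponded to 0.0799 to 0.0902 counts per 1000000 (CPM). All values below are CPM scaled by trimmed mean of M values (TMM), and intervals are 95% intervals for counting error alone, since nothing measured the spread between cultures. Without replicates no test was possible, and a difference is called where it reached 2-fold on the log2(CPM + 0.5) scale among the 14263 genes that reached 1 CPM in any library. The labelled identities were checked against marker genes: 8 pluripotency markers summed to 4726, 4267, 2584 and 581.6 CPM, and 7 trophoblast stem cell markers to 146.8, 185.9, 669.3 and 1838 CPM. Single markers did not all follow these sums. Utf1 was highest in TSC (51.4, 66.1, 34.5 and 174 CPM), and Dppa4 was about as high in TSC as in 2iJ (98.9, 121.7, 61.3 and 120.7 CPM). Sox2 and Zfp42 were lowest in TSC but still had 153.6 and 122.9 CPM there. The keratin Krt8 made up most of the trophoblast sum in 2iJ+B−A (92.3, 133.7, 552.6 and 883.5 CPM). Eomes was lowest in 2iJ+B−A (12.4, 10.7, 2.74 and 178.9 CPM), and Elf5 had 1, 2 and 5 counts in the mESC libraries and 10471 in TSC. In bulk samples, fewer cells that express a gene and less RNA per cell cannot be told apart.

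The receptors belong to families of close relatives, so the first zinc finger is shown for the families that the results turn on, as a view of how much sequence separates members that the reads had to tell apart. Each line gives 69 coding bases, 5′ to 3′ on the gene's own strand and read from GENCODE M1 transcripts on NCBIM37. The capitals mark the codons of the P box, the stretch that touches the bases of the DNA half-site.
Esrra: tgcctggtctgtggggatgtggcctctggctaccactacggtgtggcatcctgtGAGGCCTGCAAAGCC
Esrrb: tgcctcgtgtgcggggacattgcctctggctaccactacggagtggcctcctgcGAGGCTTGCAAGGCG
Esrrg: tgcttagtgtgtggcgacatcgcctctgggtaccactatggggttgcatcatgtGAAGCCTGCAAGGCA
Nr5a2: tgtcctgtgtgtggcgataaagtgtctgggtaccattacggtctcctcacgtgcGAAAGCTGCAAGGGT
Nr2f1: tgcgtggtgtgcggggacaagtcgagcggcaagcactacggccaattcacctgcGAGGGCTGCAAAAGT
Nr2f2: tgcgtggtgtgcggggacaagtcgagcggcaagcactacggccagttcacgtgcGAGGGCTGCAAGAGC
Rarb: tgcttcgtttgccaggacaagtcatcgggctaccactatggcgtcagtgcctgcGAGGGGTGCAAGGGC
Rarg: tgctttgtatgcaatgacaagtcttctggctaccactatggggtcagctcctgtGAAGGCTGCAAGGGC
The windows lie in exon 2 of Esrra (chr19:6994575-6994643, minus strand), Esrrb (chr12:87811415-87811483, plus strand) and Esrrg (chr1:189867538-189867606, plus strand), and in exon 1 of Nr2f1 (chr13:78337520-78337588, minus strand) and Nr2f2 (chr7:77504913-77504981, minus strand). In the others an intron falls just before the last codon: Nr5a2 (chr1:138841536-138841601 and chr1:138840003-138840005), Rarb (chr14:17380928-17380993 and chr14:17341587-17341589) and Rarg (chr15:102072267-102072332 and chr15:102071628-102071630), all on the minus strand. Nr2f1 and Nr2f2 were the most similar pair, identical at 65 of 69 bases, followed by Esrra with Esrrb and Rarb with Rarg at 57 bases each. Esrrb and Nr5a2 shared 44 of 69 bases. No window of this kind was found in the coding sequence of Nr0b1, and that of Nr6a1 (chr2:38615846-38615914, minus strand) shared 43 bases with Nr5a2.

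Most of the members' transcript sequence matched their own gene alone: of 1420 overlapping 126-base tiles of their transcripts, 9 also matched elsewhere in the genome, 7 of 143 in Nr5a2 and 2 of 163 in Esrrb. Antisense neighbours overlap Esrra (Trmt112), Nr6a1 (4 genes, among them Mir181a-2 and Mir181b-2) and Nr2f1 (2 genes), and 1 gene on the same strand lies within Nr6a1. The counts used strand, and counts without strand called the same number of members in all comparisons.

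The members spanned a wide range of expression, and the same few led in the 3 mESC libraries. Esrrb was the highest of the 48 nuclear receptors analysed per exonic length in every library, with 95.6, 78.8, 50.0 and 40.9 CPM per kb. Nr5a2 was second in the 3 mESC libraries, at 36.5 to 45.4 CPM per kb, and 26th in TSC at 0.178 CPM per kb. Together with Nr0b1, Rarg and Nr6a1, they made up 5 of the 8 highest receptors in each mESC library, while in TSC Esrrb was the 1 member among the first 6. Of the 10 members, 8 passed 1 CPM in at least 1 library. Rarb passed narrowly, with a highest value of 1.44 CPM in 2iJ+B−A, so that its place among the 8 rests on the libraries where it was high, and Esrrg did not pass, with 0.627 CPM at most. Nr2f1 had 2 to 7 counts in each library and is treated as not detectable above the floor in 3 of the 4, with 7 counts in 2iJ+B−A.

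**Figure D1:**
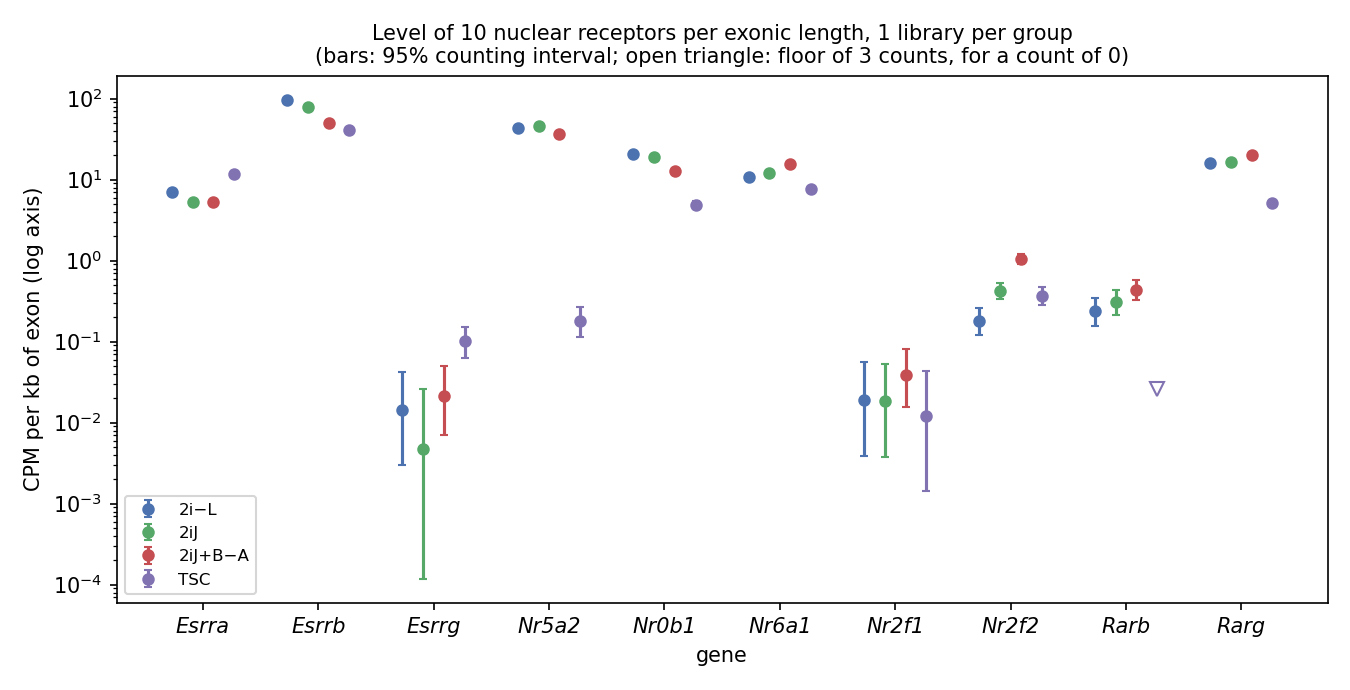
Level of each member in CPM per kb of exon (log axis) in the 4 libraries, with bars for the 95% counting interval and an open triangle at the floor of 3 counts where the count was 0. Esrrb stands highest in every library at 40.9 to 95.6 CPM per kb, Nr5a2 drops to 0.178 in TSC, and Nr2f1 and Esrrg reach at most 0.101.

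The estrogen-related receptors are orphan receptors with no established natural ligand, and Esrra is best known as a regulator of mitochondrial genes. Esrrb had 578.3, 476.4, 302.3 and 247.6 CPM. The 4 libraries stood apart from one another beyond counting error in that order, with the widest step, 1.58-fold (1.54 to 1.61), between 2iJ and 2iJ+B−A. Esrra had another order, with 17.8, 13.4, 13.3 and 30.2 CPM, highest in TSC. Its 2iJ and 2iJ+B−A libraries did not separate, with a ratio of 1.01 (0.885 to 1.14). Within each library, Esrrb exceeded Esrra per exonic length by 13.6-fold (12.5 to 14.8), 14.9-fold (13.6 to 16.4), 9.54-fold (8.72 to 10.4) and 3.44-fold (3.22 to 3.67). The balance was thus narrower in TSC, where Esrra made up 22.5% of the family's summed level, compared with 6.28 to 9.49% in the mESC libraries. Esrrg had 3, 1 and 5 counts in 2i−L, 2iJ and 2iJ+B−A and 22 counts in TSC, 4.71-fold (1.74 to 15.9) above 2iJ+B−A, and contributed at most 0.191% of the family.

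Nr5a2 and Nr0b1 are receptors of the naive pluripotency network. Nr5a2 had 164.7, 174.0, 139.8 and 0.684 CPM. In TSC, 24 counts were left of the 5253 to 5976 seen in mESC. The 3 mESC libraries lay within 1.25-fold of each other, and TSC lay far below all of them. Nr0b1, an atypical receptor that binds other receptors as a corepressor, had 37.1, 34.2, 23.2 and 8.72 CPM. Its levels in 2i−L and 2iJ were at the edge of counting error, and the step to 2iJ+B−A was 1.47-fold (1.35 to 1.61). Per exonic length the ratio of Esrrb to Nr5a2 was 2.23 (2.16 to 2.30), 1.74 (1.69 to 1.79), 1.37 (1.33 to 1.42) and, in TSC, 229.7 (154.3 to 358.7). Both receptors are known to bind extended half-sites such as TCAAGGTCA. None of the 18 member promoters in the RefSeq table (GRCm38.p6, 250 bases before to 50 after the start) held these letters on either strand. Over all 32851 promoters the share was 0.423%, so low that 18 promoters are too few to show a lack of such sites.

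Nr6a1, the repressor of Pou5f1 during differentiation, had 81.1, 91.4, 117.0 and 58.3 CPM. All 4 libraries stood apart beyond counting error. The order of the 3 mESC libraries was the reverse of that of Esrrb and Nr0b1. Pou5f1 itself had 899.3, 884.7, 658.0 and 1.34 CPM.

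Nr2f2 regulates mesenchymal and vascular development and was the member with the widest range of log2(CPM + 0.5) among the mESC libraries. It had 29, 71, 191 and 63 counts, or 0.872, 2.07, 5.08 and 1.80 CPM. The 2iJ and TSC libraries did not separate, with a ratio of 1.15 (0.809 to 1.64), and the other neighbours did. Its close relative Nr2f1 had 3, 3, 7 and 2 counts. No 2 of these differed beyond counting error, the widest interval of neighbours in the order being that of 2iJ over TSC, 0.176 to 18.4. Summed markers of other cell types did not all move with Nr2f2. For 8 primitive endoderm markers the sums were 10.2, 19.05, 40.8 and 52.3 CPM, with Ttr at 0 in all. In TSC that sum was mostly Gata4 (23.5 CPM) and Dab2 (21.1 CPM). Sox17 (87 and 5 counts) and Pdgfra (10.4 and 5.04 CPM) were lower in TSC than in 2iJ+B−A. For 7 markers of differentiated trophoblast they were 2.68, 8.04, 50.7 and 17.2 CPM, with Tpbpa, Prl3d1, Prl2c2 and Ctsq at 0 in the mESC libraries. In 2iJ+B−A nearly all of it came from Gcm1 (28.0 CPM) and Ascl2 (22.65 CPM). The 6 mesoderm markers summed to 5.44, 5.18, 3.78 and 26.5 CPM, with 4 of the 6 lower in 2iJ+B−A than in 2iJ. In TSC that sum was mostly Kdr (22.25 CPM, and 0.874 CPM in 2iJ). Of the 6 mesoderm markers, 4 were higher and 2 lower in TSC than in 2iJ, and only Kdr and T (2.51 CPM) reached 1 CPM in TSC. The 4 neural markers summed to 41.1, 41.4, 44.8 and 81.9 CPM, most of it from Nes (39.5, 37.6, 43.8 and 73.1 CPM). The summed level of 10 embryonic fibroblast markers was 50.5, 44.2, 37.8 and 12.2 CPM, with Col1a2, Dcn and Lum at 0 in TSC. From 2iJ to 2iJ+B−A that sum followed Col1a1 (18.8 and 4.34 CPM) and Col1a2 (8.91 and 5.35 CPM), whereas 6 of the 10 markers had higher values in 2iJ+B−A, among them Col3a1 (4.34 and 5.86 CPM), Fbn1 (3.12 and 6.81 CPM) and Lum (3 and 21 counts). Their part in the Nr2f2 values was not tested.

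Rarg and Rarb bind retinoic acid, and Rarb is a classical target of retinoic acid signaling. Rarg had 65.5, 68.5, 83.2 and 21.2 CPM. The 2i−L and 2iJ values did not separate (ratio 1.05, 0.987 to 1.11), and TSC lay below the others by 3.09-fold or more. Rarb had 26, 35 and 54 counts in 2i−L, 2iJ and 2iJ+B−A, with neighbours that did not separate, though 2iJ+B−A lay 1.84-fold (1.13 to 3.06) above 2i−L. It had 0 counts in TSC, which allows up to 0.0854 CPM at the floor of 3 counts. The upstream 250 bases of Rarb are shown because they hold the element through which retinoic acid receptors are known to act on this gene (RefSeq, GRCm38.p6, chr14:16575477-16575726, minus strand), with the element in capitals.
Rarb: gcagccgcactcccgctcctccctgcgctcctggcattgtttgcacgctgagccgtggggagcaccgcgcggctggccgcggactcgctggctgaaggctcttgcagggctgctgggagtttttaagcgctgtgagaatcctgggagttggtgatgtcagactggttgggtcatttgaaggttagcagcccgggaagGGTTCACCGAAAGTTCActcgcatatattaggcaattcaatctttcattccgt
The element, the half-sites GGTTCA and AGTTCA separated by 5 bases, lies at bases −53 to −37 before the start. Searched on both strands, this pair of half-sites at this spacing was found in 2 of the 32851 promoters, 0.00609%, and in 1 of the 18 member promoters, that of Rarb. The pattern searched was the known element of Rarb itself, so this match was given beforehand and is no sign of enrichment among members. A pair of AGGTCA half-sites 5 bases apart was found in 3 promoters and in no member's. A match of letters is a description and no measure of binding.

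Between 2iJ and 2i−L, which differ by the JAK inhibitor, no member reached 2-fold, against 1.23% of all genes at least 2-fold higher and 0.918% at least 2-fold lower in 2iJ. The log2 ratios of the 8 members past 1 CPM ran from −0.40 (Esrra) to 0.90 (Nr2f2), with a median of 0.07 beside 0.00 for all genes. Nr2f2 came nearest, with an interval of 0.45 to 1.34. Without the pseudocount its ratio was 2.37-fold (1.52 to 3.79), close to the 2.46-fold (1.86 to 3.28) of the next comparison, and with a pseudocount of 0.1 CPM it was called. Esrra (−0.40, −0.57 to −0.23) and Esrrb (−0.28, −0.31 to −0.25) were lower in 2iJ and Nr6a1 was slightly higher (0.17, 0.10 to 0.25). Nr5a2 (0.08, 0.03 to 0.13) and Nr0b1 (−0.12) differed little. For Rarg (0.07, −0.02 to 0.15) and Rarb (0.25, −0.25 to 0.73) the interval included 0.

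Between 2iJ+B−A and 2iJ, which differ by BMP4 and the ALK5 inhibitor together, Nr2f2 was called higher, with a log2 ratio of 1.12 (0.78 to 1.46), and no member was called lower. Over all genes, 5.81% were at least 2-fold higher and 3.17% at least 2-fold lower, beside 1 and 0 of 8 members. No other member reached 2-fold, and the values that follow are set against counting error alone. Esrrb (−0.66, −0.69 to −0.62), Nr0b1 (−0.55, −0.67 to −0.42) and Nr5a2 (−0.31, −0.37 to −0.26) were lower in 2iJ+B−A. Nr6a1 (0.35, 0.29 to 0.42) and Rarg (0.28, 0.20 to 0.36) were higher. Esrra (−0.01, −0.19 to 0.17) and Rarb (0.35, −0.10 to 0.80) did not separate. The median over the 8 members was 0.13, beside 0.00 for all genes. Nr2f2 was 5.83-fold (3.93 to 8.94) higher in 2iJ+B−A than in 2i−L, a comparison that shares its first library with the one above. The Nr2f2 call against 2iJ was lost with a pseudocount of 1 CPM or when the whole interval had to lie beyond 2-fold.

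**Figure D2:**
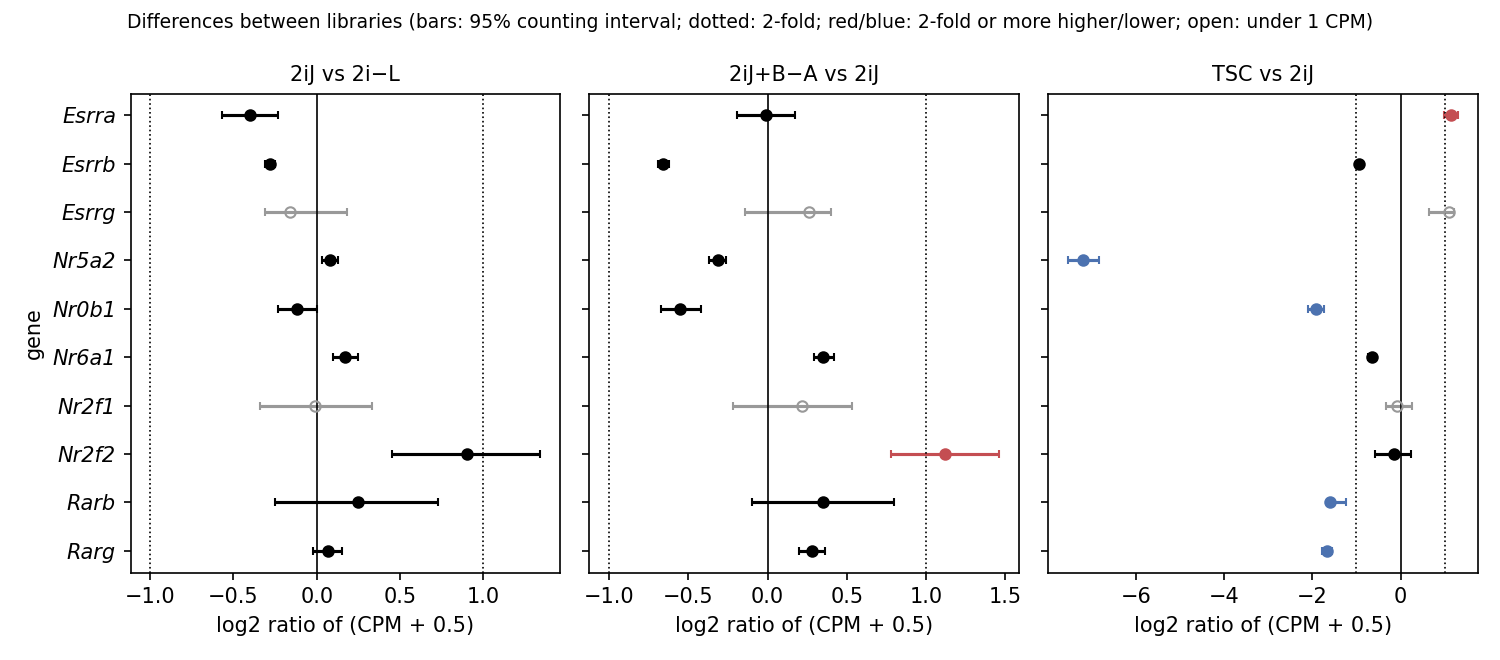
Log2 ratio of (CPM + 0.5) for each member in the 3 comparisons, with bars for the 95% counting interval and dotted lines at 2-fold, on an axis of its own in each panel. Red points (Nr2f2 in 2iJ+B−A, Esrra in TSC) were called higher, blue points (Nr5a2, Nr0b1, Rarb and Rarg in TSC) lower, and open grey points stayed under 1 CPM.

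Between TSC and 2iJ, 4 of the 8 members past 1 CPM were called lower and 1 higher, against 17.6% of all genes at least 2-fold lower and 19.4% at least 2-fold higher. Nr5a2 was lowest, with a log2 ratio of −7.20 (−7.54 to −6.84), which is 254.6-fold without the pseudocount. Nr0b1 (−1.91, −2.09 to −1.74), Rarg (−1.67, −1.79 to −1.55) and Rarb were the others called lower. Rarb had 35 counts against 0, 11.9-fold lower with TSC set at the floor. The interval of its TSC to 2iJ ratio was 0 to 0.109. Esrra was called higher (1.15, 0.99 to 1.30), and this call was lost against 2i−L, where its log2 ratio was 0.75 (0.60 to 0.89), and when the whole interval had to lie beyond 2-fold. Esrrb was 1.92-fold lower in TSC than in 2iJ (−0.94, −0.98 to −0.91), just short of the limit, and −1.22 (−1.26 to −1.19) against 2i−L, where it was called. Nr6a1 (−0.64, −0.73 to −0.56) was lower and Nr2f2 (−0.16, −0.57 to 0.24) did not separate. Esrrg, under 1 CPM, had 22 counts against 1, a ratio of 21.5 with an interval of 3.48 to 888.1. The median of the 8 members was −1.27, or −1.31 with Rarb at its bound, and that of all genes 0.00.

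The other 38 nuclear receptors were set beside the members. Of these, 21 passed 1 CPM. In 2iJ against 2i−L, 1 of the 21 was called higher and none lower (all genes, 1.23 and 0.918%), with a median of 0.08, and that one was the mineralocorticoid receptor Nr3c2 (log2 ratio 1.19). In 2iJ+B−A against 2iJ, 3 were called higher and 1 lower (all genes, 5.81 and 3.17%), with a median of 0.05. Pparg, a lipid-sensing receptor needed for placental development, had 18 counts in 2iJ and 271 in 2iJ+B−A (log2 ratio 2.91). The vitamin D receptor Vdr (1.18) and the retinoid X receptor Rxra (1.04) were also higher, and Rara, the third retinoic acid receptor, was lower (−1.31). In TSC against 2iJ, 6 were called higher and 2 lower (all genes, 19.4 and 17.6%), with a median of 0.59. Vdr (3.83), Pparg (3.02) and Rxra (2.18) were higher. Hnf4a, a regulator of endoderm and liver genes, had 85 counts in 2iJ and 0 in TSC, 29.0-fold lower with TSC set at the floor. The interval of its TSC to 2iJ ratio was 0 to 0.0434. The comparisons with 2iJ share that library. Nr2f6, named in the plot of all receptors, overlaps a gene on the opposite strand, and its strand-aware counts exceeded those without strand by more than 2-fold in each library.

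**Figure D3:**
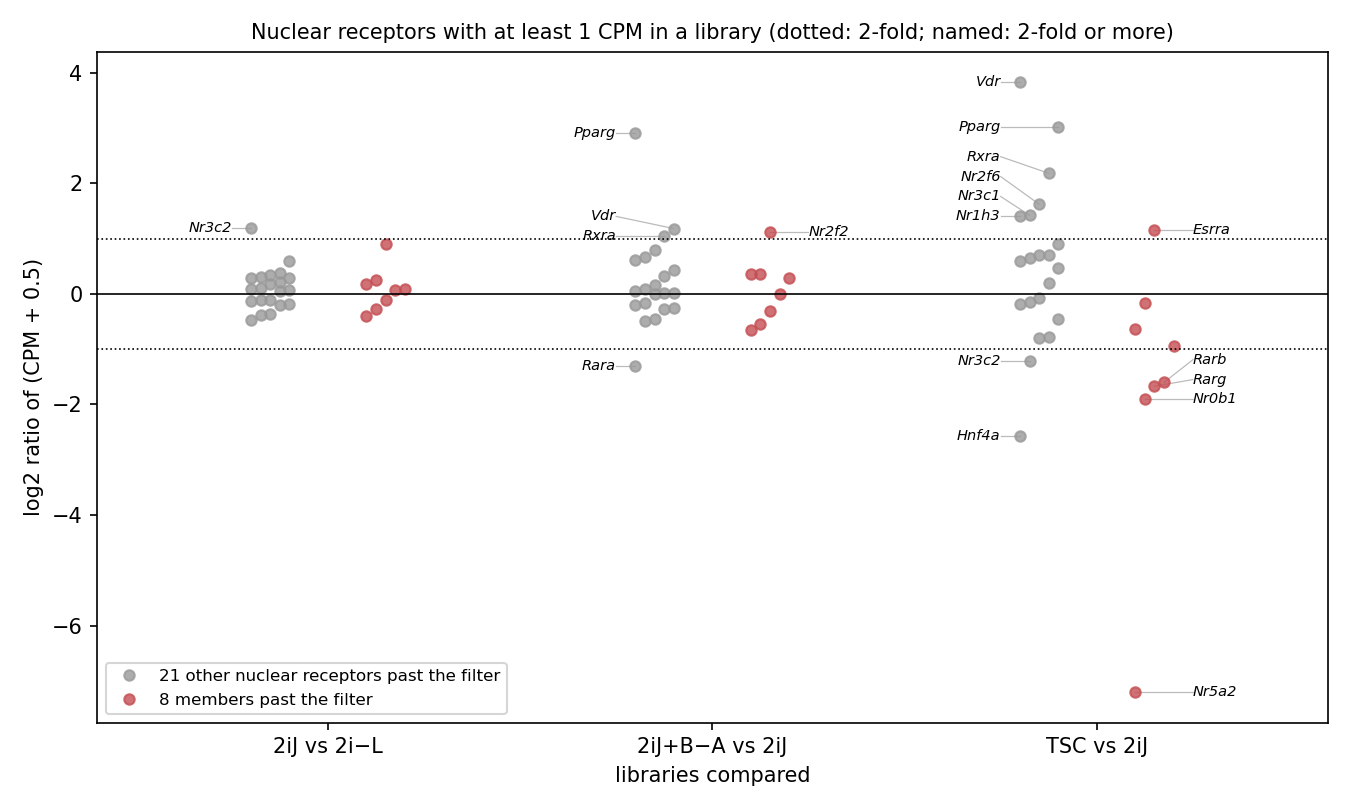
Log2 ratio of (CPM + 0.5) in the 3 comparisons for the 8 members (red) and the 21 other nuclear receptors (grey) that passed 1 CPM, with dotted lines at 2-fold and names for those called. In TSC 4 members lie below the lower line and 1 above the upper one, and of the other receptors 2 lie below and 6 above, beside 17.6% and 19.4% of all genes.

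Within the retinoic acid receptor family the balance of Rarg and Rara differed among the libraries. Rara had 1562, 1403, 606 and 1359 counts, lowest in 2iJ+B−A, where Rarg was highest. Per exonic length the ratio of Rarg to Rara was 1.55 (1.45 to 1.66), 1.87 (1.75 to 2.00), 5.74 (5.26 to 6.28) and 0.610 (0.557 to 0.668). Rarg thus held 60.3, 64.3, 83.6 and 37.9% of the family's summed level. The sum itself was 26.4, 25.9 and 24.2 CPM per kb in the mESC libraries and 13.6 in TSC. Their dimer partners showed another shift: Rxrb exceeded Rxra per length by 4.28-fold (3.90 to 4.71) in 2i−L, 3.98-fold (3.65 to 4.35) in 2iJ and 1.60-fold (1.49 to 1.71) in 2iJ+B−A, and did not separate from it in TSC (0.993, 0.939 to 1.05).

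**Figure D4:**
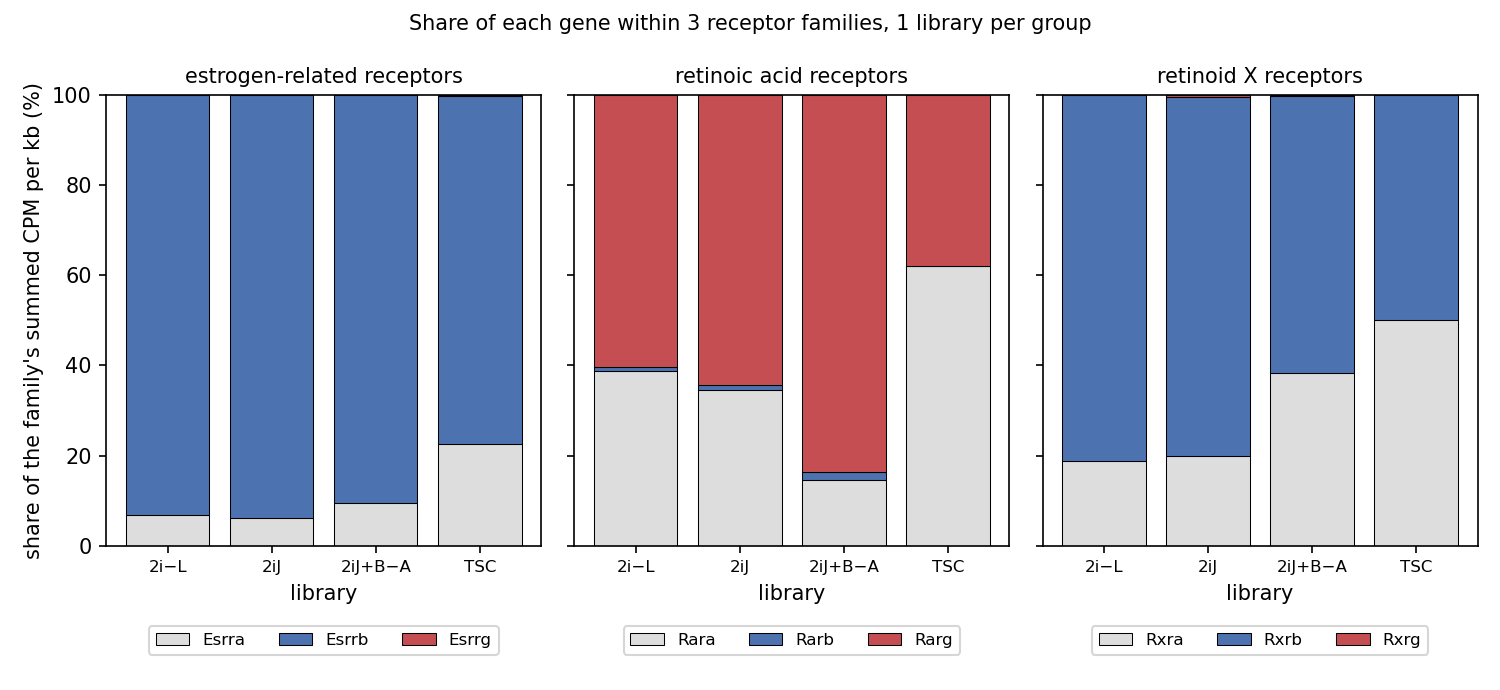
Share of each gene in the summed CPM per kb of its family, in percent, for the estrogen-related receptors, the retinoic acid receptors and the retinoid X receptors in the 4 libraries, each bar adding to the whole family. Esrrb holds 77.3 to 93.7% of its family, Rarg goes from 37.9% in TSC to 83.6% in 2iJ+B−A, and Rxra from 18.9% in 2i−L to 50.2% in TSC.

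The enzymes, carriers and targets of retinoic acid signaling were listed separately, and their counts stand beside the same shares of all genes. Of 18 genes, 14 passed 1 CPM. In 2iJ against 2i−L, none was called higher and 1 lower (all genes, 1.23 and 0.918%), with a median of 0.22. The gene called was the retinoic acid-binding protein Crabp1 (log2 ratio −1.34). In 2iJ+B−A against 2iJ, 2 were called higher and 1 lower (all genes, 5.81 and 3.17%), with a median of 0.09. Stra8, a retinoic acid-induced gene of germ cells, had 1429 counts in 2i−L, 808 in 2iJ and 2342 in 2iJ+B−A (1.39), Crabp1 was higher (1.17), and the retinoic acid-synthesising enzyme Aldh1a2 was lower (−1.69). In TSC against 2iJ, 3 were called higher and 5 lower, beside 19.4 and 17.6% of all genes, with a median of −0.13. Cyp26a1, the enzyme that degrades retinoic acid, had 844 counts in TSC and 7 to 15 in the mESC libraries (5.01). Stra8 had 0 counts in TSC, 275.4-fold lower with TSC set at the floor, and the interval of its TSC to 2iJ ratio was 0 to 0.00448. Crabp2 (−2.62) and Aldh1a2 (−2.42) were also lower. TSC was therefore the library with Rarb and Stra8 at 0 counts and the highest Cyp26a1. Of 18 coregulators, 17 passed 1 CPM. Ppargc1b, a coactivator of the estrogen-related receptors, was the 1 called, higher than in 2iJ both in 2iJ+B−A (1.51) and in TSC (2.91). Its counts were 50, 37, 150 and 399. This 1 of 17 stands beside 5.81% of all genes called higher and 3.17% lower in 2iJ+B−A. For TSC the shares were 19.4 and 17.6%. Nrip1 ended just short of the limit in 2iJ+B−A against 2iJ, with a log2 ratio of 0.99 (0.87 to 1.11).

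**Figure D5:**
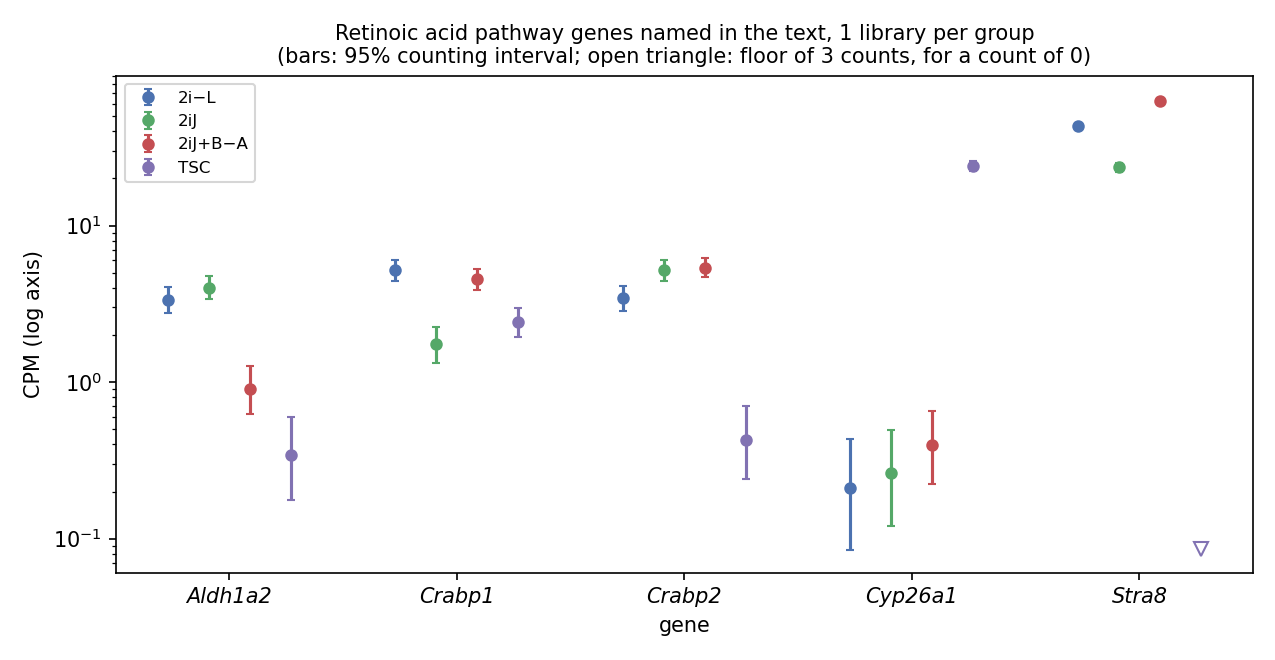
CPM (log axis) of the 5 retinoic acid pathway genes named in the text in the 4 libraries, with bars for the 95% counting interval and an open triangle at the floor of 3 counts where the count was 0. Cyp26a1 reaches 24.0 CPM in TSC and has at most 0.399 CPM elsewhere, and Stra8 has 62.3 CPM in 2iJ+B−A and 0 counts in TSC.

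For members whose log2 level ranged over at least 2 among the 4 libraries, the genes with the nearest profile were sought among those reaching 10 CPM, by Euclidean distance of the centred log2 values. With 4 libraries such likeness is a description. For Nr5a2 these were Ddx3y (distance 0.21), Cstf2t (0.27) and Gm13242 (0.28), all near 0 in TSC. Ddx3y, a gene of chromosome Y, had 51.7 to 60.8 CPM in the R1 libraries and 0 counts in F4, so that the profile of Nr5a2 and a difference between the lines cannot be told apart. For Nr0b1 they were Dpy30 (0.11), Tiparp (0.12) and Gyk (0.13), of which Gyk lies 414944 bases from Nr0b1 on chromosome X (NCBIM37). For Nr2f2 they were Med12l (0.12), Tspan2 (0.26) and 1700007K13Rik (0.27). The nearest other nuclear receptors were Rarg for Nr0b1 (0.76) and Hnf4a for Nr5a2 (3.85).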

How the data were processed

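RNA-seq libraries of 3 R1 mESC conditions and of F4 TSC were analysed, 1 per group. The authors demultiplexed with CASAVA 1.8.2, trimmed with cutadapt at a quality of 20, aligned to NCBIM37 and counted reads per gene with STAR 2.4.2a; the annotation release is not given in the sources used here. The deposited values are raw counts, unnormalized, and the strand-specific column was used. Of 37620 gene identifiers, 37205 matched a symbol. Library sizes were scaled by TMM (edgeR 4.0.16; DESeq2 1.42.0 size factors as an alternative); ratios used a pseudocount of 0.5 CPM, with Clopper-Pearson intervals of the split of both counts, and levels exact Poisson intervals, in Python 3.11.15 with scipy 1.17.1. These cover counting error only. Exonic lengths and sequences came from GENCODE M1, promoters from RefSeq, and 126-base tiles were aligned with minimap2 2.31 (at least 120 bases, at most 6 differences). The ratio calculation was tested on simulated data. All 10 members were named; of the other lists, up to 4 called genes per comparison were named, those with the largest ratio; likeness took the 3 nearest genes. Of the family, 1 nuclear receptor is not reported here. Members and lists were chosen with earlier results of these data known. The alternatives changed strand, scaling, pseudocount, filter, fold limit and reference library.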

Additional observations from a re-analysis of the deposited data

How the results depend on the processing

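With 1 library per group, no library could be left out and no paired analysis was possible. Scaling by DESeq2 size factors or by totals on genes alone and counts without strand changed no number of members called. The share of all genes called in 2iJ against 2i−L, 1.23% higher and 0.918% lower, was 2.96 and 1.61% with a pseudocount of 0.1 CPM, 0.659 and 0.61% with 1 CPM, 0.77 and 0.567% without a filter, 5.38 and 3.91% at 1.5-fold, and 0.28 and 0.365% with the interval wholly beyond 2-fold. In this comparison 1 member, Nr2f2, was called higher with a pseudocount of 0.1 CPM or at 1.5-fold. In 2iJ+B−A against 2iJ the shares were 3.6 and 2.01% without a filter, 11.9 and 8.72% at 1.5-fold, and 3.51 and 1.84% with the interval wholly beyond 2-fold. There the count of members called higher was 0 with a pseudocount of 1 CPM and with the stricter interval, and 1 member, Esrrb, was called lower at 1.5-fold. In TSC against 2iJ the shares were 12.2 and 11.3% without a filter, and 28.9 and 27.5% at 1.5-fold. Members called higher were 2 without a filter (Esrra and Esrrg) and 0 with the stricter interval or against 2i−L. Members called lower were 6 at 1.5-fold (Esrrb and Nr6a1 added), 5 against 2i−L (Esrrb added) and 3 with the filter at 5 CPM (Rarb lost). No called ratio of a member changed sign with strand, scaling, pseudocount or reference; ratios of the other lists were not part of this check. Members under about 2 CPM (Rarb, Nr2f1 and Esrrg) are limited by depth.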
